A study of Mus musculus with 9 samples.

Results

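Forkhead genes encode transcription factors that share a winged-helix DNA-binding domain, the forkhead box. The accessible chromatin of 36 forkhead genes was described while mouse embryonic fibroblasts (MEFs) were reprogrammed to induced pluripotency (iPSCs). They were all protein-coding genes on chromosomes 1 to 19 whose symbol is Fox, a letter and a number, out of 21418 protein-coding genes there, with 3 genes left out by name. The choice used symbols and no measured value. Some forkhead factors, the FOXA proteins among them, are known to bind nucleosomal DNA and open compact chromatin. Others act downstream of insulin signalling (FOXO) or in the cell cycle (FOXM1), and many are restricted to 1 lineage, such as mesenchyme, gut and ectodermal epithelia or the nervous system. The genes were therefore ordered by the role their products are known for. There were 11 broadly expressed, 6 mesenchymal and mesodermal, 10 endodermal and epithelial, 6 neural and 3 other genes.

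ATAC-Seq uses the Tn5 transposase to insert adapters into open chromatin, and 9 libraries were analysed, with 1 library per condition and no replicates. The MEFs came from mouse embryos carrying an EGFP reporter behind the endogenous Oct4 gene. Apart from the D0 cells, which were MEFs on day 0, all had received retroviruses for Oct4, Sox2, Klf4 and c-Myc (OSKM). D3 cells were unsorted, D6T− and D9T− cells were sorted as negative for the fibroblast surface protein Thy-1, and D12S+ and D16S+ cells as positive for the pluripotency-associated SSEA-1. The iPSCs were fully reprogrammed and unsorted. The 2 remaining libraries held Thy-1− cells of day 6 after transfection with siRNA against histone H3.3 (D6 siH3.3) or non-targeting siRNA (D6 siNT). All libraries are of mixed cells, so fewer cells with an open promoter and less opening per cell cannot be told apart.

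The libraries held from 13213117 (D9T−) to 31714845 (D0) tags. The measured value was the pileup at the summit of a region, the number of extended tags that cover it, given here per 1000000 tags of the library (CPM). The lowest pileup called lay between 0.331 and 0.530 CPM, highest in D9T−, and a weaker opening was not detectable at this depth. Pileups of the whole genome differed between libraries. Over all promoters called in both libraries, the median was 2.25-fold higher at D3 and 3.80-fold higher in D6T− than at D0, and D6 siNT stood at 0.374 of D6T− although both are Thy-1− cells of day 6. Changes of forkhead genes are therefore given beside the median of all genes. Of 8 pluripotent markers, 1 had a promoter region at D0, 7 in D12S+ and 8 in D16S+ and iPSCs. Of 8 fibroblast markers, 6 had one at D0 and 4 in iPSCs, where Postn and Col1a2 had none and Thy1 still had one at 0.489 CPM. The Thy1 promoter was not called in any of the 4 libraries sorted as Thy-1−. Its D0 value was 0.410 CPM, below the lowest pileup called in D9T− (0.530), D6 siNT (0.413) and D6 siH3.3 (0.429). A promoter as open as at D0 could not have been called in those libraries.

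A promoter was the 3 kb upstream of any transcript start site (TSS), and a region was counted from an overlap of 1 bp. At D0, 23 of the 36 forkhead genes had a promoter region, beside 59.2% of all protein-coding genes. The number was 29 at D3 (68.7% of all genes) and 29 in D6T− (69.1%), and 18 in D9T− (51.3%), the library with the fewest tags. It was 24 in D12S+ (63.8%), 26 in D16S+ (63.7%) and 29 in iPSCs (65.0%). D6 siNT had 22 (55.7%) and D6 siH3.3 had 21 (55.1%). A promoter region in every library was found for 16 genes (44.8% of all genes), and 2 genes had none in any library (24.4%). The other 18 gained or lost the call between libraries.

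Counted from the promoter to the transcript end (TTS), all 36 genes held a region in at least 1 library and 19 in every library (53.2% of all genes). By library, the number was 28 at D0 (71.5% of all genes), 33 at D3 (77.2%), 34 in D6T− (77.1%) and 23 in D9T− (59.7%). It was 29 in D12S+ (71.2%), 32 in D16S+ (70.7%), 35 in iPSCs (72.7%), 26 in D6 siNT (63.8%) and 24 in D6 siH3.3 (63.5%). Foxi1 was the gene without a region in iPSCs. Forkhead genes were mostly short, with a median length of 5539 bp against 15535 bp over all genes, and 10 of them (27.8%) consisted of a single exon against 12.8% of all genes.

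**Figure D1:**
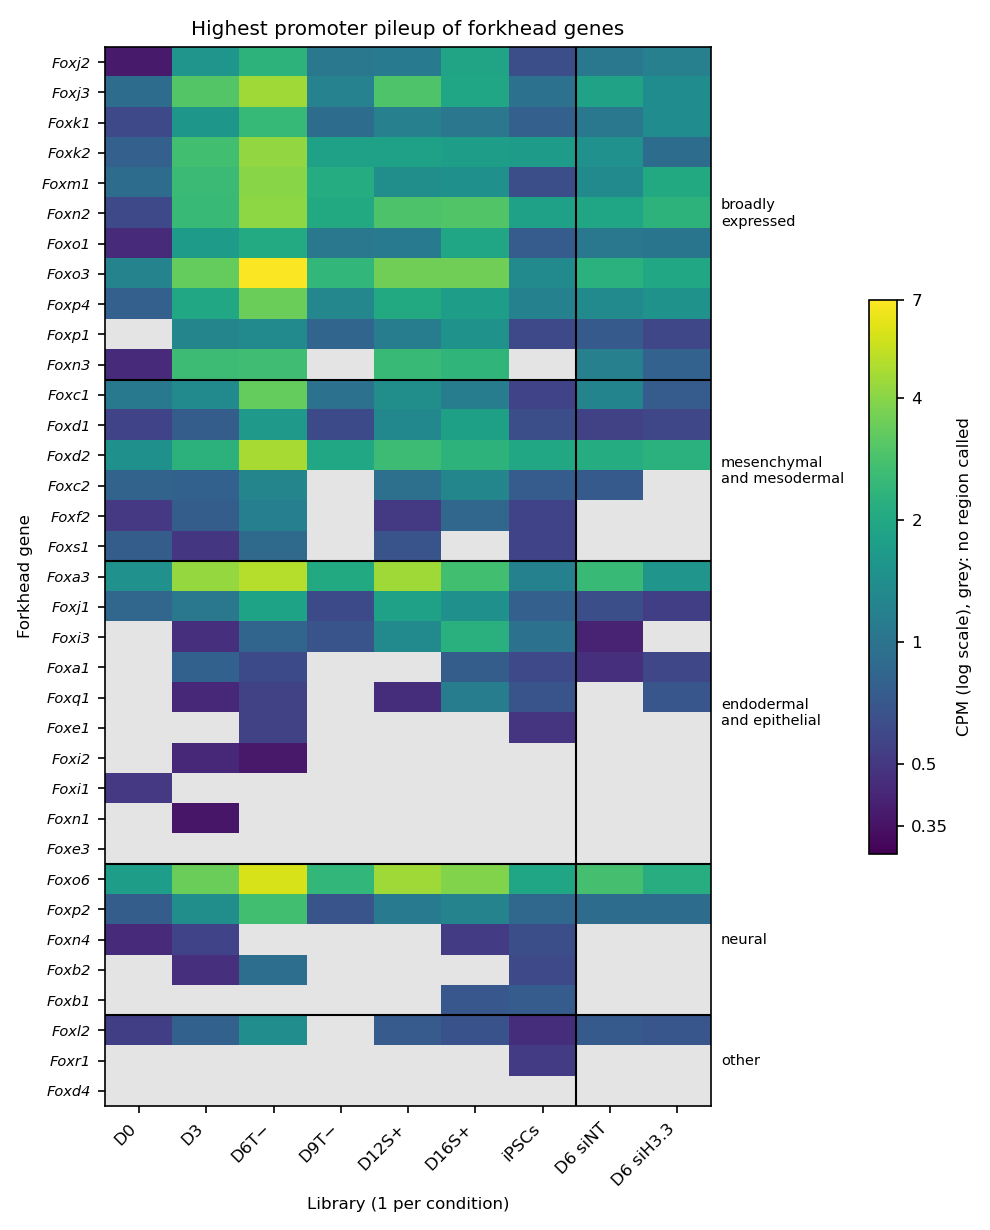
Highest promoter pileup of 35 forkhead genes (rows, grouped by role) in each of the 9 libraries (columns), in CPM on a log colour scale, where grey cells have no region called. Broadly expressed genes are coloured in nearly every column with their highest values in D6T−, and most grey cells lie among the endodermal, epithelial and neural genes and in the D9T− and siRNA columns.

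Most forkhead promoters were CpG-rich. The ratio of observed to expected CpG within 500 bp of the outermost TSS was at least 0.6 in 26 of the 36 genes (72.2%), against 46.5% of all genes. Among these CpG-rich promoters, 18 forkhead promoters were called at D0 (69.2%), where the share over all CpG-rich promoters was 87.5%. The share was 84.6% at D3 against 97.3%, 84.6% in D6T− against 97.1% and 57.7% in D9T− against 81.6%. It was 73.1% in D12S+ against 95.0% and 84.6% in D16S+ against 95.9%. In iPSCs 25 of the 26 were called, a share of 96.2% against 96.5%. D6 siNT had 69.2% against 88.0% and D6 siH3.3 had 65.4% against 86.9%. The forkhead share thus lay below that of all CpG-rich promoters by over 11 percentage points in every library but iPSCs, where the shares differed by less than 1 gene. The 10 forkhead genes whose outermost TSS lay outside this class had a share above that of the same class over all genes in all 9 libraries. It was 50.0% at D0 against 34.7%, 70.0% at D3 against 43.9%, 70.0% in D6T− against 44.7% and 30.0% in D9T− against 25.0%. D12S+ had 50.0% against 36.6%, D16S+ 40.0% against 35.8% and iPSCs 40.0% against 37.7%. The siRNA libraries had 40.0% each, against 27.7% in D6 siNT and 27.4% in D6 siH3.3. The CpG ratio was taken at the outermost TSS, whereas a promoter region could lie at any TSS. Among these 10 genes, the highest promoter regions of Foxk2, Foxn3 and Foxp1 lay at inner starts, whose CpG ratio was not measured. Foxa3, with a ratio of 0.595, shares its window with the start of Sympk. The higher share therefore does not show that CpG-poor forkhead starts were called more often.

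**Figure D2:**
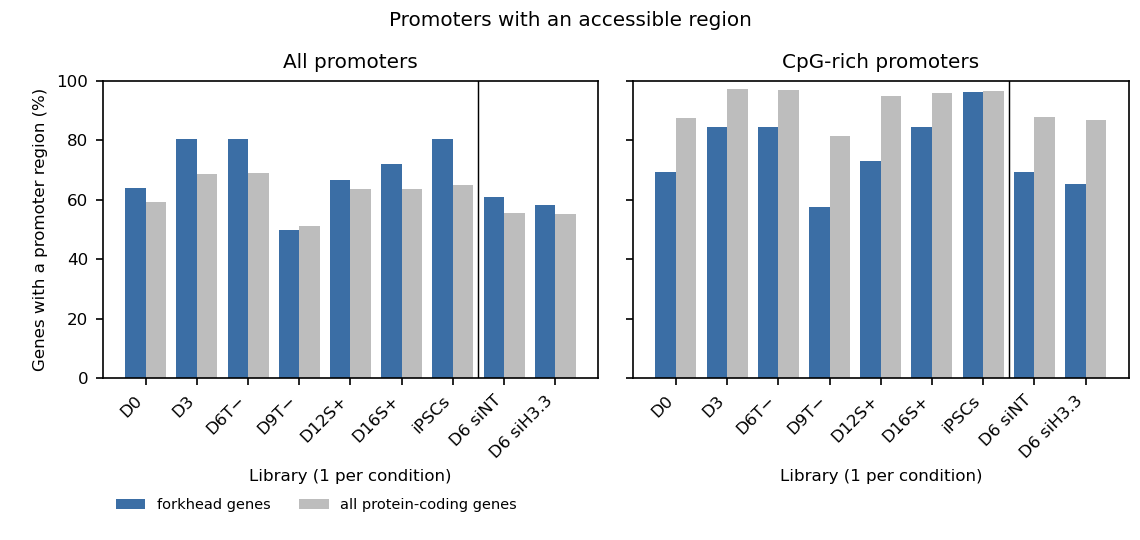
Percent of genes with a promoter region (y axis) in each library (x axis), for all promoters (left) and for CpG-rich promoters (right), with forkhead genes in blue and all protein-coding genes in grey. On the right the blue bars stay below the grey bars except in iPSCs, where they stand at 96.2% and 96.5%.

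Among the broadly expressed genes, all 11 had a promoter region at D3, D6T−, D12S+, D16S+ and in both siRNA libraries, and 10 at D0, D9T− and in iPSCs. Their called promoters had a median of 0.694 CPM at D0, 2.51 at D3, 3.46 in D6T−, 1.25 in D9T−, 1.82 in D12S+, 1.89 in D16S+ and 0.884 in iPSCs. Foxo3, whose product is retained in the cytoplasm by AKT phosphorylation, had the highest promoter pileup of the group in most libraries. It measured 1.23 CPM at D0, 3.34 at D3, 6.83 in D6T−, 2.42 in D9T−, 3.52 in D12S+, 3.54 in D16S+ and 1.35 in iPSCs, with 2.25 in D6 siNT and 1.98 in D6 siH3.3. The D6T− value was the highest of any forkhead promoter (exact Poisson interval 5.76 to 8.03 CPM). Like all intervals here, this one covers counting error only and not variation between cultures or libraries.

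Foxn2 had the largest fold of D6T− over D0. Its promoter, with the summit about 200 bp upstream of the TSS, measured 0.599 CPM at D0, 2.51 at D3, 4.11 in D6T−, 2.04 in D9T−, 2.90 in D12S+, 2.98 in D16S+ and 1.81 in iPSCs. It had 1.93 CPM in D6 siNT and 2.30 in D6 siH3.3. In iPSCs and D6 siH3.3 it exceeded Foxo3 and led the group. Foxj2 measured 0.378 CPM at D0, close to the lowest call of that library, then 1.55 at D3, 2.29 in D6T−, 1.06 in D9T−, 1.08 in D12S+, 1.89 in D16S+ and 0.640 in iPSCs. Its siRNA libraries were alike, with 1.06 in D6 siNT and 1.18 in D6 siH3.3.

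Foxn3, a repressor known from checkpoint control, had its promoter region at an inner TSS. It measured 0.441 CPM at D0, 2.61 at D3, 2.66 in D6T−, 2.50 in D12S+ and 2.36 in D16S+, with 1.19 in D6 siNT and 0.803 in D6 siH3.3, and had no call in D9T− or in iPSCs. The joined region over this start (chr12:100629811-100632242, mm9) reached 1.67 CPM in D9T− and 1.13 in iPSCs with regions that began inside the gene, 421 and 455 bp from the nearest TSS. Its highest summit lay inside the gene too, and whether it counted for the promoter depended on how far the region around it extended. At D0 it formed a region of its own, outside the window, at 1.23 CPM, and at D3 it was part of the region over the TSS. Over the joined region, the values were 1.23 CPM at D0, 2.61 at D3, 4.35 in D6T−, 2.67 in D12S+, 2.36 in D16S+, 1.47 in D6 siNT and 1.23 in D6 siH3.3.

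Foxm1, an activator of mitotic genes, had more than 1 accessible start. The region at its outer start measured 0.568 CPM at D0, 2.58 at D3, 3.13 in D6T−, 1.51 in D9T−, 1.42 in D12S+, 1.46 in D16S+ and 0.640 in iPSCs, with 1.33 in D6 siNT and 1.23 in D6 siH3.3. It was called in every library. The window around it also holds the start of 5930416I19Rik on the opposite strand, so its accessibility cannot be assigned to 1 of them. A region upstream of an inner start (chr6:128314490-128315637) measured 0.914 CPM at D0, 1.62 at D3, 4.02 in D6T−, 2.12 in D9T− and 0.965 in D12S+. It was not called in D16S+ or in iPSCs and had 1.10 CPM in D6 siNT and 2.04 in D6 siH3.3. The highest promoter pileup of Foxm1 therefore came from the inner start at D0, D6T−, D9T− and in D6 siH3.3 and from the outer start in the others.

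Foxp1, which encodes a transcriptional repressor, was the broadly expressed gene without a promoter region at D0. It measured 1.26 CPM at D3, 1.36 in D6T−, 0.833 in D9T−, 1.14 in D12S+, 1.51 in D16S+ and 0.602 in iPSCs, with 0.734 in D6 siNT and 0.589 in D6 siH3.3. At D6T− this region lay at an inner start. Foxk1, a repressor of autophagy genes, measured 0.599 CPM at D0, 1.59 at D3, 2.48 in D6T−, 0.908 in D9T−, 1.19 in D12S+, 1.04 in D16S+ and 0.790 in iPSCs, with 1.06 in D6 siNT and 1.39 in D6 siH3.3. The remaining broadly expressed genes, Foxj3, Foxk2, Foxo1 and Foxp4, were called in all 9 libraries, from 0.441 CPM (Foxo1 at D0) to 4.44 CPM (Foxj3 in D6T−). The promoter window of Foxj3 also holds the start of AA415398 on the opposite strand, so the Foxj3 values cannot be assigned to 1 of the genes.

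The promoters of the 6 mesenchymal and mesodermal genes, Foxc1, Foxc2, Foxd1, Foxd2, Foxf2 and Foxs1, were all called at D0, D3, D6T−, D12S+ and in iPSCs, and 5 of them are single-exon genes. At D9T− 3 were called, and 4 in D6 siNT and 3 in D6 siH3.3. Foxd2 led the group in every library. It measured 1.45 CPM at D0, 2.28 at D3, 4.63 in D6T−, 1.97 in D9T−, 2.61 in D12S+, 2.31 in D16S+ and 1.96 in iPSCs, with 2.11 in D6 siNT and 2.25 in D6 siH3.3. A long non-coding RNA starts on the opposite strand within its promoter window. Non-coding RNAs also start on the opposite strand within the windows of Foxb1, Foxe1 and Foxl2.

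Foxc1, needed for eye, skull and vessel development, measured 1.07 CPM at D0, 1.36 at D3, 3.32 in D6T−, 0.984 in D9T−, 1.42 in D12S+, 1.13 in D16S+ and 0.564 in iPSCs. The siRNA libraries had 1.24 (D6 siNT) and 0.750 (D6 siH3.3). It had the lowest ratio of iPSCs to D0 among promoters called in both. Foxd1, a factor of kidney stroma, ran from 0.551 CPM in D6 siNT to 1.79 in D16S+, with 0.568 at D0, 0.761 at D3, 1.64 in D6T−, 0.605 in D9T−, 1.31 in D12S+, 0.640 in iPSCs and 0.589 in D6 siH3.3.

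Foxc2, known for lymphatic vessels, measured 0.820 CPM at D0, 0.794 at D3, 1.26 in D6T−, 0.965 in D12S+, 1.28 in D16S+, 0.752 in iPSCs and 0.734 in D6 siNT. It had no promoter region in D9T− or in D6 siH3.3, although D6 siH3.3 had a region of 0.536 CPM that began 369 bp inside the gene. The values came from different places, an upstream region (chr8:123637161-123637679, mm9) and one over the start, which were both called at D0, each at 0.820 CPM. Foxf2, a factor of gut and palate mesenchyme, measured 0.504 CPM at D0, 0.761 at D3, 1.17 in D6T−, 0.511 in D12S+, 0.850 in D16S+ and 0.564 in iPSCs and was not called in D9T− or in the siRNA libraries. Foxs1, known from neural crest and perivascular cells, measured 0.757 CPM at D0, 0.496 at D3, 0.888 in D6T−, 0.681 in D12S+ and 0.564 in iPSCs. It had none in D9T−, D16S+ or in the siRNA libraries.

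The Foxs1 region is shown because its pileup was lower at D3 than at D0 while the median promoter was 2.25-fold higher. The stretch of 300 bases around its summit (chr2:152759386-152759685, mm9, plus strand, upstream of the gene on the minus strand) held 4 CpG and none of the 3 motifs searched:
Foxs1 upstream: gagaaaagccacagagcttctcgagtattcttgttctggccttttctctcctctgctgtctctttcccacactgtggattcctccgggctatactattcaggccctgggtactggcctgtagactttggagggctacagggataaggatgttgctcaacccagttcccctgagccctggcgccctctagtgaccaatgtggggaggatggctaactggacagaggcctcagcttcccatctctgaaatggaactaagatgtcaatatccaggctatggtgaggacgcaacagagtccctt

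Among the 10 endodermal and epithelial genes, 3 had a promoter region at D0, 7 at D3 and D6T−, 3 in D9T−, 4 in D12S+, 5 in D16S+ and 6 in iPSCs, with 4 in each siRNA library. Foxa3, a liver and pancreas factor, led the group in all 9 libraries. It measured 1.48 CPM at D0, 4.27 at D3, 4.91 in D6T−, 2.04 in D9T−, 4.49 in D12S+, 2.69 in D16S+ and 1.20 in iPSCs, with 2.52 in D6 siNT and 1.55 in D6 siH3.3. Its window also holds the start of Sympk, which encodes a component of the messenger RNA cleavage machinery, on the opposite strand. The summit lay within 1 kb upstream of Foxa3, so these values cannot be assigned to 1 of the genes. Foxj1, the regulator of motile cilia, was called in all 9 libraries, from 0.536 CPM in D6 siH3.3 to 1.87 CPM in D6T−.

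Foxi3, a factor of pharyngeal and placodal ectoderm, had its highest promoter pileup late in the time course. It had no region at D0 and measured 0.463 CPM at D3, 0.841 in D6T−, 0.681 in D9T−, 1.36 in D12S+, 2.22 in D16S+ and 0.978 in iPSCs. D6 siNT had 0.413 CPM, the lowest pileup called in that library, and D6 siH3.3 had none. Its D16S+ interval (1.63 to 2.95 CPM) lay above the values of all other libraries. The summit lay 57 bp upstream of the TSS. The 201 bases up to the border of the gene (chr6:70906318-70906518, mm9, plus strand) are shown as a CpG-dense start that was not called in MEFs. They held 19 CpG at a GC content of 71.1% and none of the motifs searched:
Foxi3 promoter: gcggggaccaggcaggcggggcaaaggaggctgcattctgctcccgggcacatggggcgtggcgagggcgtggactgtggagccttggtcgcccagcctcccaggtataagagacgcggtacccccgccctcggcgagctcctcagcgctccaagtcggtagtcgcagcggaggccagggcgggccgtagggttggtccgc

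Foxa1, a pioneer factor of endoderm, had no region at D0 and measured 0.794 CPM at D3, 0.608 in D6T−, 0.756 in D16S+, 0.602 in iPSCs, 0.459 in D6 siNT and 0.589 in D6 siH3.3. At D9T− and D12S+ its promoter had no call, and regions of 0.833 and 0.568 CPM lay inside the gene. The joined region behind the D3 value measured 1.12 CPM in D6T− and 0.850 in D16S+, where it lay outside the promoter window. The Foxa1 promoter values of different libraries came from 4 separate regions, and none of these was called in both D6T− and D6 siNT. Foxq1 measured 0.430 CPM at D3, 0.561 in D6T−, 0.454 in D12S+, 1.13 in D16S+, 0.677 in iPSCs and 0.696 in D6 siH3.3, and was not called at D0, D9T− or in D6 siNT. D6 siNT had a region of 0.551 CPM that began 560 bp inside the gene. Foxq1, Foxf2 and Foxc1 follow each other on chromosome 13 and all 3 had a promoter region at D3, D6T−, D12S+, D16S+ and in iPSCs.

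The remaining endodermal and epithelial promoters were called near the limit of detection. Foxi1, a factor of ionocytes, had 0.504 CPM at D0 (interval 0.288 to 0.819) and no call in any other library. Foxe1, the thyroid factor, had 0.561 CPM in D6T− and 0.489 in iPSCs. Foxi2 had 0.430 CPM at D3 and 0.374 in D6T−, the latter being the lowest pileup called there. The joined region at the Foxi2 start measured 0.795 CPM in D6T− and 0.752 in iPSCs. In iPSCs it began 134 bp inside the gene and did not count for the promoter. Foxn1, which directs thymic epithelium, had 0.364 CPM at D3. Foxe3, the lens factor, had no promoter region, and a region with its summit inside its single exon measured 0.496 CPM at D3, 1.08 in D6T−, 0.852 in D12S+, 0.661 in D16S+ and 0.752 in iPSCs.

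Of the 6 neural genes, Foxo6 and Foxp2 were called in every library. Foxo6, the brain member of the FOXO group, measured 1.73 CPM at D0, 3.44 at D3, 5.80 in D6T−, 2.42 in D9T−, 4.49 in D12S+, 3.87 in D16S+ and 1.92 in iPSCs, with 2.75 in D6 siNT and 2.14 in D6 siH3.3. It exceeded Foxo3 at D0, D3, D12S+, D16S+, in iPSCs and in both siRNA libraries, equalled it in D9T− and lay below it in D6T−, and it led its group in all 9 libraries. Foxp2, known for its role in vocal learning, ran from 0.681 CPM in D9T− to 2.71 CPM in D6T−. Foxn4, a factor of the early retina, measured 0.441 CPM at D0, 0.562 at D3, 0.520 in D16S+ and 0.640 in iPSCs. Its D0 region lay at an inner start, whereas those of D3, D16S+ and iPSCs lay at the outer one. Foxb2 measured 0.463 CPM at D3, 0.935 in D6T− and 0.602 in iPSCs. At D0, in D16S+ and in D6 siNT its promoter had no call. Regions of 0.504, 0.567 and 0.597 CPM there began 669, 927 and 638 bp inside the gene. They belong to the same joined region as the D6T− value.

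Foxb1, a factor of the hypothalamus and midbrain, had a promoter region in D16S+ (0.708 CPM) and iPSCs (0.752 CPM) and in no other library. Among the other genes, Foxl2, the ovarian factor, measured 0.536 CPM at D0, 0.794 at D3, 1.40 in D6T−, 0.738 in D12S+, 0.661 in D16S+ and 0.451 in iPSCs, with 0.734 in D6 siNT and 0.696 in D6 siH3.3. Its missing call in D9T− stood beside a region of 0.908 CPM that began 1264 bp inside the gene. The iPSCs value of Foxl2 came from an upstream region. The joined region at its start measured 0.640 CPM in iPSCs and 0.536 at D0. Foxr1 had 0.527 CPM in iPSCs alone. Foxd4 had no promoter region, and a region inside the gene measured between 0.561 and 0.708 CPM at D3, D6T−, D16S+ and in iPSCs.

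Over all libraries, 103 promoters of the 36 genes had no call, and in 12 of these a region of the same joined stretch began inside the gene, between 79 and 1264 bp from the nearest TSS. They were spread over 8 libraries, with 3 in D9T− and none at D3, and 1 of the 12, Foxb1 in D6T−, was called when the window reached 1 kb upstream and 100 bp downstream.

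The highest promoter region of a gene was not always the same one in both libraries of a comparison. The summits lay over 500 bp apart in 6 of 22 forkhead genes between D0 and D3 (13.9% of all genes called in both), in 1 of 21 between D0 and D6T− (12.6%) and in 7 of 21 between D0 and iPSCs (17.9%). It was 2 of 22 between D6T− and D6 siNT (7.42%) and 3 of 20 between the siRNA libraries (5.92%). For some genes of this kind, ratios are given over the same joined region too. For the others, values of different libraries can come from different places.

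From D0 to D3, the promoters of 22 forkhead genes called in both libraries changed by a median of 1.15 on the log2 scale, and those of all genes by 1.17. A pileup at least 2-fold higher at D3 was found for 13 forkhead genes (40.2% of all genes) and one 2-fold lower for none (0.266%). The 13 were all 11 broadly expressed genes together with Foxa3 and Foxa1 of the 10 endodermal and epithelial genes. None of the 6 mesenchymal, 6 neural or 3 other genes was among them. Foxa1 and Foxp1 count by bounds, as neither had a promoter region at D0. Foxn2 was 4.20-fold higher at D3 (exact interval of the ratio 2.51 to 7.35) and Foxj2 4.11-fold (2.15 to 8.51). Foxn3 was 5.92-fold higher (3.33 to 11.3) by its promoter calls, which set a D0 region beside a wider one at D3, and 2.12-fold higher over the joined region. Foxm1 was likewise called at different starts, and was 4.54-fold higher over the outer region and 1.77-fold over the inner one. Foxs1 stood at 0.656 of its D0 value, with an interval that includes 1, and Foxc2 at 0.968 (0.532 to 1.75), or at 0.726 over its upstream region and 0.968 over the region at its start. A region was gained by 7 genes (11.2% of all genes) and lost by 1, Foxi1 (1.77%). With pileups scaled to the median promoter, Foxn3 alone was at least 2-fold higher (1.16% of all genes), a call that rests on the wider D3 region since the joined region rose less than the median promoter, and Foxc2, Foxs1 and Foxi1 were at least 2-fold lower (7.40%).

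From D0 to D6T−, the median change was 1.84 on the log2 scale over 21 forkhead genes and 1.92 over all genes. At least 2-fold higher were 22 genes (60.1% of all genes), which included all 11 broadly expressed, 4 of 6 mesenchymal, 3 of 10 endodermal and epithelial and 3 of 6 neural genes. Foxb2, Foxi3 and Foxp1 count here by bounds, as none had a promoter region at D0. Over its joined region Foxb2 measured 0.504 CPM at D0 and 0.935 in D6T−, a rise of less than 2-fold. None was 2-fold lower (0.0700%). The largest folds were those of Foxn2 (6.87-fold, 4.15 to 11.9), Foxj2 (6.05-fold, 3.17 to 12.5) and, by its promoter calls, Foxn3 (6.04-fold, 3.32 to 11.7), which was 3.54-fold higher over the joined region. The smallest among promoters called in both were those of Foxs1 (1.17-fold, 0.608 to 2.24) and Foxc2 (1.54-fold, 0.865 to 2.75). A region was gained by 8 genes (12.0%) and lost by Foxi1 and Foxn4 (2.16%). Scaled to the median promoter, no forkhead gene was 2-fold higher (1.34%), and Foxc2, Foxi1, Foxn4 and Foxs1 were 2-fold lower (8.54%).

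The start and the end of reprogramming were closer in pileup. Between D0 and iPSCs the median change was 0.16 on the log2 scale over 21 forkhead genes and 0.34 over all genes. At least 2-fold higher in iPSCs were 4 genes (10.7% of all genes) and none was 2-fold lower (1.61%). Foxn2 was 3.01-fold higher (1.74 to 5.43) and Foxk2 2.15-fold (1.29 to 3.65). Foxi3 was at least 2.82-fold and Foxb1 at least 2.17-fold higher, set against the lowest pileup called at D0. A region was gained by 8 genes (10.5%) and lost by Foxi1 and Foxn3 (4.75%), where Foxn3 kept a region inside the gene, at 1.23 CPM at D0 and 1.13 in iPSCs over the joined region. Foxc1 stood at 0.526 of its D0 value (0.266 to 0.993) and Foxm1 at 0.699 (0.361 to 1.32), where the Foxm1 values come from different starts and its outer region stood at 1.13 of the D0 value. Scaled to the median promoter, Foxi3 and Foxn2 were 2-fold higher (4.32%) and Foxc1 was 2-fold lower (3.81%). The comparisons with D3, D6T− and iPSCs share the D0 library.

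**Figure D3:**
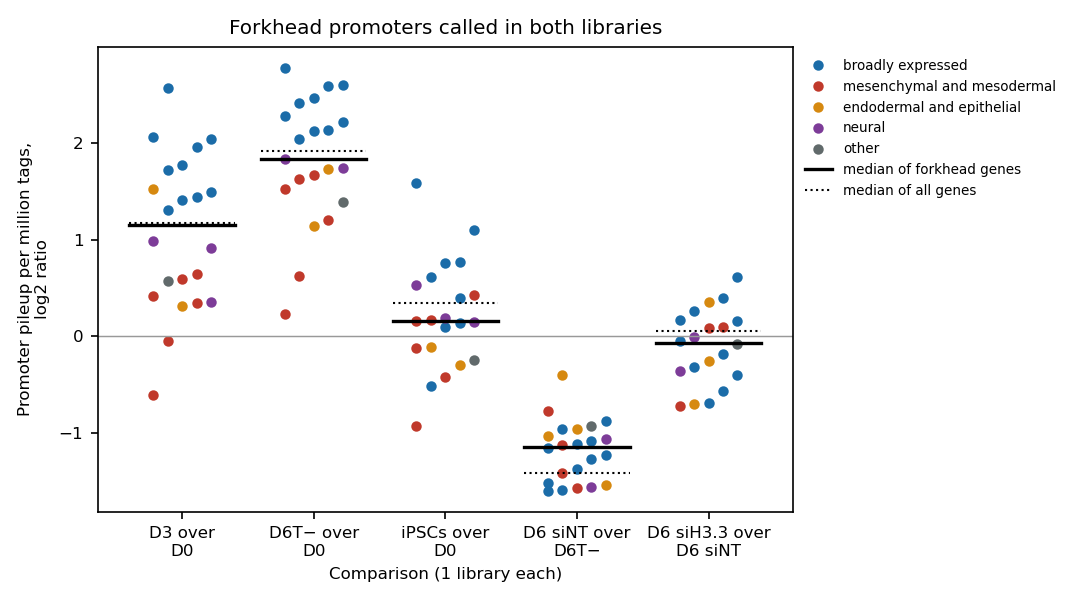
Log2 ratio of promoter CPM (y axis) for forkhead genes called in both libraries of each of 5 comparisons (x axis), 1 point per gene, coloured by role, with the median of forkhead genes (solid line) and of all genes (dotted line). The medians differ by at most 0.27 in the 5 comparisons, and at D3 and D6T− the broadly expressed genes lie in the upper part with Foxs1 and Foxc2 lowest.

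The day 6 libraries were compared to set the siRNA control beside untransfected cells and the H3.3 knockdown beside its control. D6 siNT lay below D6T− by a median of −1.15 on the log2 scale over 22 forkhead genes and −1.42 over all genes. At least 2-fold lower were 19 forkhead genes (54.1% of all genes) and none was 2-fold higher (0.00467%). Foxo3 was 3.03-fold lower in D6 siNT (interval of its ratio to D6T− 0.233 to 0.458). Foxd1 stood at 0.337 of its D6T− value (0.159 to 0.664). Foxm1 stood at 0.331 (0.210 to 0.510), a ratio of the outer region in D6 siNT to the inner one in D6T−. Over the same region it stood at 0.425 for the outer start and 0.274 for the inner one. Foxc2 stood at 0.582 (0.293 to 1.12). The Foxa1 ratio of 0.755 (0.296 to 1.86) set separate regions beside each other, with summits 2604 bp apart, and no Foxa1 promoter region was called in both libraries. In 7 genes, Foxf2 and Foxs1 among them, no region was called in D6 siNT (13.5%), and none was gained (0.103%). Foxb2, also among the 7, counts as 2-fold lower by a bound. Over its joined region it measured 0.935 CPM in D6T− and 0.597 in D6 siNT, a fall of less than 2-fold. Scaled to the median promoter, Foxa1 was 2-fold higher (1.52%), a call that rests on these separate regions, and none was lower (0.952%).

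Between D6 siNT and D6 siH3.3, no forkhead promoter was 2-fold higher (0.518% of all genes) or lower (0.523%). The median change was −0.07 on the log2 scale over 20 forkhead genes and 0.05 over all genes. Among promoters called in both, Foxk1 was 1.32-fold higher in D6 siH3.3 (0.723 to 2.42). Foxm1 was 1.53-fold higher (0.918 to 2.57) as the inner region in D6 siH3.3 over the outer one in D6 siNT, and over the same region it stood at 0.925 for the outer start and was 1.85-fold higher for the inner one. Foxc1 stood at 0.605 (0.293 to 1.19) and Foxa3 at 0.615 (0.378 to 0.982), an interval just below 1. A region was gained by Foxq1 (2.95%) and lost by Foxc2 and Foxi3 (3.58%). Foxq1 had a region inside the gene in D6 siNT. The Foxc2 region of D6 siNT was the upstream one, at 0.734 CPM, and it was not called in D6 siH3.3, while the region at the start measured 0.597 CPM in D6 siNT and 0.536 in D6 siH3.3. Foxi3 had the lowest pileup that could be called in D6 siNT.

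Regions of all 9 libraries were then joined where they overlapped, which gave 273 joined regions from 3 kb upstream to the TTS of the forkhead genes and 119690 over all protein-coding genes. By their summits, 183 of the 273 (67.0%) lay in introns, 30 upstream, 30 in UTRs, 23 in coding exons and 7 in other exons. All 9 libraries shared 25 of them (9.16%, against 8.55% over all genes), and 124 (45.4%, against 46.1%) were called in 1 library. Called in iPSCs and in no other library were 31 (11.4%, against 6.45%), and in D0 alone 17 (6.23%, against 10.0%). D0 regions that were called in none of D12S+, D16S+ and iPSCs made up 12.8% (20.6% over all genes). Regions absent at D0 and called in all 3 of these libraries made up 8.42% (5.04%), and those of D16S+ and iPSCs that were absent at D0, at D3, in D6T− and in D9T− numbered 9 of the 273 (2.46% over all genes). Regions of D3, D6T− or both and no other library numbered 77 (28.2%, against 31.5%). Regions of 1 gene share their surroundings and are not independent.

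The long genes held most of these regions. Foxn3 (255072 bp) and Foxp1 (341195 bp) held 36 joined regions each, Foxk1 28 and Foxp4 26. Foxp2, the longest with 540629 bp, held 11, and so fewer per 10 kb than Foxp1 (1.05), Foxn3 (1.39) or Foxk1 (4.41). Foxp1 had 7 regions at D0, 18 at D3, 28 in D6T−, 4 in D9T−, 12 in D12S+, 7 in D16S+ and 6 in iPSCs, with 6 in D6 siNT and 8 in D6 siH3.3. It peaked in D6T−, as did the number of regions over the whole genome, and 15 of its 36 regions were called in D3 or D6T− only (31.5% over all genes). Foxp4 had 5 regions at D0, 14 at D3, 7 in D6T−, 4 in D9T−, 8 in D12S+, 9 in D16S+ and 16 in iPSCs. Of its 26 joined regions, 7 were called in iPSCs only (6.45% over all genes). Foxk1 had 6 at D0, 19 at D3 and in D6T−, 8 in D9T− and D12S+, 9 in D16S+ and 14 in iPSCs. Regions over the whole genome numbered 81364 at D0, 107765 at D3, 133132 in D6T−, 36708 in D9T− and 57533 in D12S+. There were 50890 in D16S+, 61615 in iPSCs, 46481 in D6 siNT and 47348 in D6 siH3.3.

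**Figure D4:**
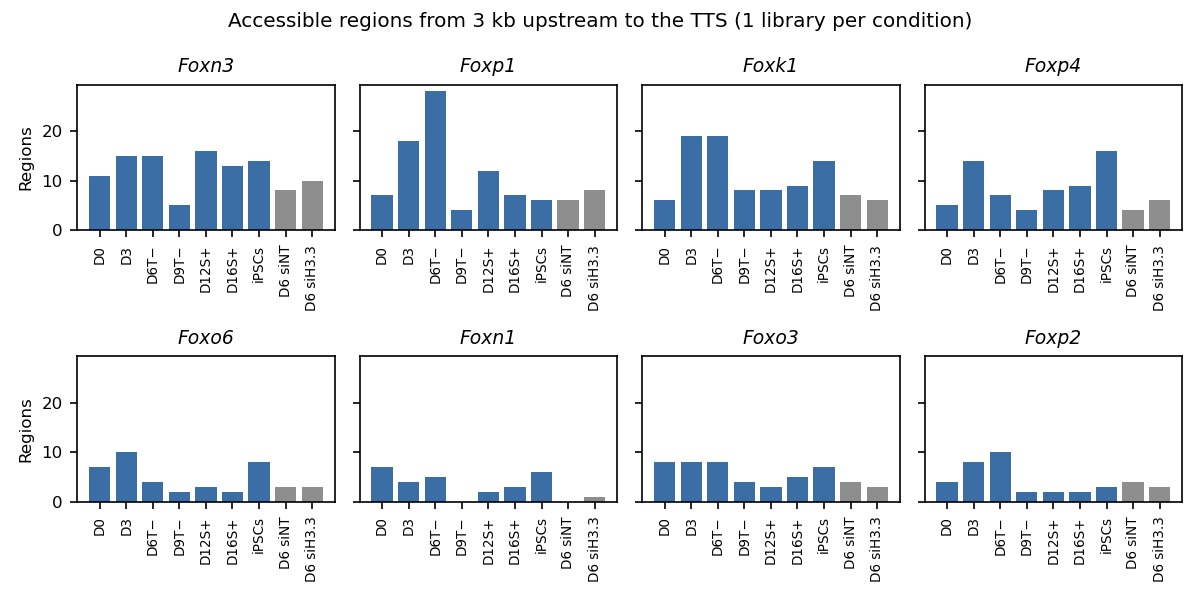
Number of accessible regions from 3 kb upstream to the TTS (y axis) in each library (x axis) for the 8 forkhead genes with the most joined regions, with the time course in blue and the siRNA libraries in grey. Foxp1 reaches its highest number, 28, in D6T−, and Foxp4 its highest, 16, in iPSCs. Over the whole genome, D6T− also held the most regions (133132) and D9T− the fewest (36708).

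The strongest region of any forkhead gene was an intronic region of Foxk1 about 39 kb inside the gene. It measured 1.95 CPM at D0, 5.33 at D3, 10.1 in D6T−, 5.45 in D9T−, 5.56 in D12S+, 4.25 in D16S+ and 1.66 in iPSCs, with 3.76 in D6 siNT and 4.34 in D6 siH3.3. It exceeded the promoter of Foxk1 in all 9 libraries. An intronic region of Foxj2 likewise exceeded its promoter in every library, with 1.01 CPM at D0, 2.32 at D3, 5.61 in D6T−, 4.16 in D9T−, 4.49 in D12S+, 3.54 in D16S+, 1.81 in iPSCs, 2.02 in D6 siNT and 1.87 in D6 siH3.3.

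An intron of Foxo1, a factor restrained by AKT, held a region that was open in the intermediate cells. It was not called at D0, D16S+ or in iPSCs and measured 1.09 CPM at D3, 3.13 in D6T−, 0.984 in D9T− and 0.681 in D12S+, with 1.15 in D6 siNT and 1.02 in D6 siH3.3. At D6T− it exceeded the Foxo1 promoter (2.06 CPM). A region of Foxp1 about 8 kb upstream of an inner start followed the same calls, with 0.430 CPM at D3, 1.92 in D6T−, 1.36 in D9T−, 0.852 in D12S+, 1.47 in D6 siNT and 1.18 in D6 siH3.3. In Foxn1, an intronic region measured 1.26 CPM at D0, 1.65 at D3 and 1.92 in D6T− and was called in no later library nor in the siRNA libraries. Its promoter was called at D3 alone.

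Regions were searched on both strands within 150 bp of the summit (301 bp) for 3 motifs: TGANTCA (AP-1), ATTTGCAT (the octamer bound by Oct4) and GTAAACA (forkhead). The letters of one do not hold those of another. AP-1 was found in 16 of 99 forkhead regions at D0 (16.2%), against 31.5% of all regions of the library. The share was 14.5% at D3 (28.0%), 22.2% in D6T− (38.4%), 11.3% in D9T− (29.4%), 8.57% in D12S+ (20.4%), 2.04% in D16S+ (8.99%) and 6.47% in iPSCs (8.68%). Both siRNA libraries had 13.2%, against 33.7% in D6 siNT and 34.5% in D6 siH3.3. The forkhead share was below that of all regions in each library. All regions here include those outside genes, whereas forkhead regions lie from 3 kb upstream to the TTS. The share over the regions of all protein-coding genes was not counted, so the difference cannot be called particular to forkhead genes. The octamer was found in 1 to 4 forkhead regions of a library and the forkhead motif in 1 to 8, between 0.602% and 2.94% for the octamer (1.39% to 2.83% of all regions) and between 0.719% and 5.26% for the forkhead motif (2.98% to 4.00%).

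The intronic stretches below (300 bases around the summit, mm9, plus strand, motif in capitals) were chosen after their values were seen, because they carry the patterns above with 1 of these motifs. They are the Foxk1 region (chr5:142916462-142916761, forkhead motif), the Foxo1 region (chr3:52100171-52100470, AP-1) and the Foxm1 region of the inner start (chr6:128314700-128314999, AP-1). The last is a Foxn3 region (chr12:100468311-100468610, octamer) called in D6T−, D12S+, D16S+, iPSCs and both siRNA libraries and not at D0. A match of letters is a description and no evidence of a bound factor:
Foxk1 intron: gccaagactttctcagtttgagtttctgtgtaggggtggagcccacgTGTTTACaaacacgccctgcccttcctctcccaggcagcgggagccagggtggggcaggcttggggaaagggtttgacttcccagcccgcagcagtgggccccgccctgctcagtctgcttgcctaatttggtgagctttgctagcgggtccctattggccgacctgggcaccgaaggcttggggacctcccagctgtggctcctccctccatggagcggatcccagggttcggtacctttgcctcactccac
Foxo1 intron: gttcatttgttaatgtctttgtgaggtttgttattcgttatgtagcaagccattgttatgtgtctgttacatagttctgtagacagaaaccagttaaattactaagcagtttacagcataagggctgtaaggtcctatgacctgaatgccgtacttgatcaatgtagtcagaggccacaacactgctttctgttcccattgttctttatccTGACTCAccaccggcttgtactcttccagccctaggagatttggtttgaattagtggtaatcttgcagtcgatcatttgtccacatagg
Foxm1 intron: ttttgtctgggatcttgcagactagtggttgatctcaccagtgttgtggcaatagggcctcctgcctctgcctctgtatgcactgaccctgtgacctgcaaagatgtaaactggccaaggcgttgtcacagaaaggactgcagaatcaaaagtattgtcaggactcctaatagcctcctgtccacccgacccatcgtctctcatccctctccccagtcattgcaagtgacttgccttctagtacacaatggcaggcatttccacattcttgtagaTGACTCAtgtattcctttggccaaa
Foxn3 intron: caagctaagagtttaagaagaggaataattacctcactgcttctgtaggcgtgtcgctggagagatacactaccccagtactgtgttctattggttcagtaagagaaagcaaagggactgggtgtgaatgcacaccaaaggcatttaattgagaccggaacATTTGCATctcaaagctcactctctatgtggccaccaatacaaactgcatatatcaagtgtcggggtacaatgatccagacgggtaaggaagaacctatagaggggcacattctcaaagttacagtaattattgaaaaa

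The Foxn3 stretch, with ATTTGCAT in capitals, lies in a region that measured 0.608 CPM in D6T−, 0.738 in D12S+, 0.614 in D16S+ and 0.640 in iPSCs, with 0.551 in D6 siNT and 0.589 in D6 siH3.3. The Foxk1 stretch holds its motif on the minus strand, read as TGTTTAC on the strand shown, and had a GC content of 62.0%, against 41.0% in the Foxo1 stretch.

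The genes around the FOXO and FOXM1 factors were called in nearly every library. So were the broadly expressed forkhead genes, with 10 or 11 of 11 called in each library. Over all protein-coding genes, 44.8% had a promoter region in all 9 libraries. All 16 regulators of FOXO proteins (Akt1, Sirt1, Ep300 and the insulin receptor gene Insr among them) and all 12 FOXO targets had a promoter region in each of the 9 libraries. All 11 FOXM1 targets had one too, except Aurkb in D9T−. From D0 to iPSCs the median change of the called promoters was 0.44 on the log2 scale for regulators, 0.38 for FOXO targets and 0.19 for FOXM1 targets, beside 0.34 over all genes. At least 2-fold higher in iPSCs were, among others, the kinase gene Akt2 (0.599 CPM at D0 and 1.24 in iPSCs), the stress gene Gadd45a (1.26 and 3.31) and the cyclin gene Ccnb2 (0.631 and 1.47). None of these genes was 2-fold lower. Over all protein-coding genes, 10.7% were at least 2-fold higher and 1.61% at least 2-fold lower.

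Other developmental families, each with fewer genes, were set beside the forkhead genes. Of 16 Sox genes, 11 had a promoter region at D0, 7 in D9T−, 14 in D16S+ and 16 in iPSCs. Of 12 Tbx genes, 7 had one at D0, 4 in D9T− and 10 in iPSCs, and of 15 Klf genes 11 at D0, 11 in D9T− and 13 in iPSCs. Forkhead genes went from 23 of 36 at D0 through 18 in D9T− to 29 in iPSCs. All 4 families had more promoters called in iPSCs than at D0. The share over all protein-coding genes moved the same way, with 59.2% at D0, 51.3% in D9T− and 65.0% in iPSCs. The direction is therefore not particular to these families, and no test of a difference between them is possible with 1 library per condition. At least 2-fold higher in iPSCs were Klf5 (0.914 CPM at D0 and 2.67 in iPSCs), Sox8 (0.631 and 1.35) and, without a region at D0, Sox14 (0.715 CPM in iPSCs), Sox15 (0.978) and Sox30 (0.865). No Tbx gene was, and over all protein-coding genes the share was 10.7%.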

How the data were processed

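The ATAC-Seq peaks of 9 libraries, grouped by their labels with 1 per condition, were used. The authors mapped reads to mm9, with STAR and Picard named in the submitters' processing notes, took out duplicates and ran MACS2 (2.1.0.20151222) with neither control nor local background, at a q-value cutoff of 0.05 with 51 bp tags lengthened to 200 bp. Per the file headers, the deposited pileup is an unscaled signal (a tag number), the fold enrichment a ratio to an even genome background, and the deposited significance is −log10 of the p-value and q-value. Only the pileup, the coordinates and, for choosing the stronger regions, the −log10 q-value were used here.

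Within a library, peaks that overlapped became 1 region, and the highest pileup over a promoter was given per 1000000 tags. Gene models were those of GENCODE vM1 (NCBIM37, which is mm9), with positions counted from 1. A promoter without a region was set at the lowest pileup called in its library, which makes a fold a bound. With 1 library per condition no test was possible, so counts and medians stand beside those of all protein-coding genes. Intervals are 95% (exact Poisson for pileups, exact binomial for ratios). Values in every library are given for genes whose promoter was called in 1 to 8 libraries, that lead their role group, or that have one of the 3 largest folds in either direction, and the other genes are given by range. Values of 1 forkhead gene, which stays in the counts and medians, and of some listed genes are not reported here. Of the other gene lists, those at least 2-fold different between D0 and iPSCs are named. The members and all lists were chosen with earlier results of these data known, and the printed sequences after their values were seen. Alternatives were other promoter windows (1 kb upstream to 100 bp downstream, outermost TSS, summit inside), the stronger 50% or an equal number of regions, scaling to the median promoter, folds of 1.5 and 3, leaving out promoters without a region, a wider symbol rule motif windows of 151 bp and, added after seeing the data, leaving out promoters whose summits lay over 500 bp apart in the 2 libraries. Overlap, merging and intervals were tested on simulated data. The tools were matplotlib 3.10.9, scipy 1.17.1, pandas 2.3.3 and numpy 2.4.6 under Python 3.11.15.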

Additional observations from a re-analysis of the deposited data

How the results depend on the processing

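With 1 library per condition, no fold or count has a replicate check, and pileups near the lowest call rest on 7 to 11 tags. No paired analysis was possible because each condition has 1 library. The number of forkhead genes with a promoter region stayed within 1.5 times its value in all 9 libraries with the narrower window, the outermost TSS, the stronger 50% of regions or a summit inside the window. With an equal number of strongest regions per library (36708), it was 15 at D0 and 18 at D6T− and within 1.5 times in the other 7. Genes with any region up to the TTS then numbered 21 at D6T−, and with the stronger 50% of regions 15 at D9T− and 16 in D6 siNT. The wider symbol rule added 1 gene, for 37.

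Scaling to the median promoter, which takes out a shift that all genes share, changed the 2-fold counts most. It left 1 gene higher and 3 lower at D3 than D0, 0 higher and 4 lower at D6T− than D0, 2 higher and 1 lower in iPSCs than D0, and 1 higher and 0 lower in D6 siNT than D6T−. A fold of 3 left 7 genes higher at D3, 1 higher in iPSCs and 2 lower in D6 siNT than D6T−. A fold of 1.5 gave 2 lower at D3, 12 higher and 1 lower in iPSCs, and 2 higher and 4 lower in D6 siH3.3 than D6 siNT. Without promoters that lack a region, 2 genes were higher in iPSCs. The 1 kb window changed no count by over 1.5 times, nor did leaving out promoters whose summits lay over 500 bp apart, a choice made after seeing the data, with 11 genes higher at D3, 21 higher in D6T− and 18 lower in D6 siNT.

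Under the same scaling 25 log2 changes of single genes turned sign, because the rise or fall of the gene was smaller than that of the median promoter. From D0 to D3 this was Foxa1 (−0.08). From D0 to D6T− it was Foxa3 (−0.29), Foxb2 (−0.59), Foxc1 (−0.39), Foxd1 (−0.49), Foxd2 (−0.34), Foxf2 (−0.81), Foxi3 (−0.74), Foxj1 (−0.88), Foxl2 (−0.63), Foxo6 (−0.28), Foxp1 (−0.05) and Foxp2 (−0.18). From D6T− to D6 siNT it was Foxb2 (0.30), Foxc1 (0.06), Foxd2 (0.34), Foxi3 (0.45), Foxj2 (0.36), Foxj3 (0.20), Foxk1 (0.25), Foxn2 (0.38), Foxn3 (0.32), Foxo6 (0.40), Foxp4 (0.10) and Foxs1 (0.37).

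In windows of 75 bp to each side of the summit, which hold fewer bases, AP-1 was found in 10.1% of forkhead regions at D0, 9.04% at D3 and 14.0% at D6T−. The octamer was then in 0% at D3 and 0.719% in iPSCs, and the forkhead motif in 0% at D0, 0.602% at D3, 2.34% at D6T−, 0% at D9T− and 1.02% at D16S+. The other 17 shares stayed within their intervals.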
